A study of Mus musculus with 20 samples.

Results

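The genes described here are 32 genes of the lysosome and of lysosomal lipid handling, measured by RNA-seq in mouse hypothalamus. They were chosen by symbol, matched to the Ensembl gene IDs of the count table through the GRCm38 annotation. The rule uses no measured value, but the genes were proposed with earlier results of these data known. All 32 were found among the 55471 genes of the table, and all 32 passed the filter on low counts that left 17893 genes for testing. They comprise 8 proteases, 8 glycan and sulfate hydrolases, 7 lipid hydrolases with their activator, 2 proteins of cholesterol export and 7 membrane proteins, secreted factors and regulators.

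The study compared hypothalamus slices of C57BL/6 wild type mice in 3 groups. Mice of the pair-fed group (RIS_PF, 6 libraries) received a risperidone diet for 4 weeks in limited amounts. Mice of the ad libitum group (RIS_Ad.lib, 7 libraries) had free access to the same risperidone diet for 4 weeks, and mice of the control group (CON_Ad.lib, 7 libraries) had free access to a control diet without the drug. The labels state that body weight was not different from mice on control diet, without settling whether this covers 1 or both feeding conditions. Risperidone, an atypical antipsychotic, acts mainly as an antagonist of dopamine and serotonin receptors. There was no pair-fed group on control diet, so feeding and drug cannot be separated within the pair-fed group. Nothing in the labels gives age, or says that each library came from its own animal, so p-values measure the spread between these libraries.

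Lysosomes are acidic organelles in which hydrolases break down proteins, glycans and lipids delivered by endocytosis and autophagy. Weak bases with a lipophilic body, called cationic amphiphilic drugs, can be protonated and trapped in lysosomes, where some of them block lipid breakdown and cause phospholipids to accumulate. A known answer of cells to lysosomal stress is entry of the transcription factor TFEB into the nucleus, where it binds short E-box elements in the promoters of lysosomal genes and raises many of them together. The comparison therefore asks whether the transcripts of these genes differed on the risperidone diet.

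The number of counted reads per library was 17316043 to 18606543 in 19 libraries and 9748005 in ad libitum risperidone library 3, where genes of ribosomal RNA held 16.6% of counts against 1.24% to 3.85% elsewhere. All 18 markers of hypothalamic neurons on the list used were detected well enough to test. Ad libitum risperidone library 1 stood apart in tissue markers: its summed level of cortex, hippocampus and amygdala markers was 1174.6 CPM (counts scaled to a common library size), against 186.47 to 269 CPM in the other 19 libraries. In the same library hypothalamus markers summed to 729.16 CPM and oligodendrocyte markers to 3348 CPM, in both cases the lowest of the 20 libraries. Counts, medians and genes that move most without ad libitum libraries 1 and 3 are therefore also given without them. The ad libitum group also differed in tissue markers beyond library 1. Markers of the hypothalamus were lower than in control in 16 of 18 genes (median log2 fold change -0.38, 12 at an unadjusted p under 0.05), and in 15 of 18 (median -0.31, 10 at that p) without libraries 1 and 3. Markers of ependyma were lower in 10 of 10 genes with (median -0.32) and without both libraries (median -0.26). In the pair-fed group, hypothalamus markers were lower than in control in 13 of 18 genes (median -0.18, 3 at an unadjusted p under 0.05). Those of ependyma were lower there in 7 of 10 (median -0.02). The lowest summed level of hypothalamus markers was 1070 CPM in pair-fed and 1419.8 CPM in control libraries.

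No gene of the 32 passed the test in any comparison. In pair-fed risperidone against control, edgeR's quasi-likelihood test with Benjamini-Hochberg adjustment over all genes called 0 of 32 at an adjusted p under 0.05, beside 0.486% of all genes tested. In ad libitum risperidone against control it called 0 of 32, beside 0.0615% of all genes. In pair-fed against ad libitum risperidone it called 0 of 32, beside 0.397%, and with both risperidone groups averaged against control 0 of 32, beside 0.33%. Since the share called was below 1% in each comparison, a count of 0 among 32 genes is near the background. DESeq2 and limma-voom also called 0 of 32 in each of the 4 comparisons.

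At an unadjusted p under 0.05 few of the genes were added. There were 0 of 32 genes in pair-fed risperidone against control (6.66% of all genes) and 0 of 32 for both risperidone groups averaged (7.82%). In ad libitum risperidone against control there were 2 genes, *Ctsl* and *Gusb*, both lower (5.97% of all genes were lower, 13.1% lower or higher). In pair-fed against ad libitum risperidone there were 5 genes, *Asah1*, *Ctsl*, *Ctsz*, *Gla* and *Ppt1*, all higher in the pair-fed group (6.09% of all genes were higher, 13.5% higher or lower). These genes varied with ad libitum libraries 1 and 3. With either library left out alone, *Asah1* and *Ctsl* kept that p between pair-fed and ad libitum risperidone. *Ctsl* also kept it in ad libitum risperidone against control. Each other gene was lost without library 1 or without library 3. Without both, the genes at an unadjusted p under 0.05 between pair-fed and ad libitum risperidone were 0 higher and 1 lower (*Lipa*), and all 5 named above were lost. In ad libitum risperidone against control they were 3 higher (*Ctsf*, *Lipa* and *Tfeb*) and 1 lower (*Gaa*), with *Ctsl* and *Gusb* lost. In pair-fed risperidone against control they were 3 higher (*Asah1*, *Ctsf* and *Tfeb*) and 1 lower (*Gaa*). With both risperidone groups averaged against control they were 3 higher and 1 lower. Of the 17978 genes tested without both libraries, 932 were higher and 950 lower at that p between pair-fed and ad libitum risperidone. Against control, 1086 were higher and 1161 lower in the ad libitum group, and 934 higher and 1093 lower in the pair-fed group. For both groups averaged, 1031 were higher and 1153 lower than in control. The counts among the 32 genes against control were near these shares of all genes. With edgeR's adjusted p, 0 of 32 were called in each comparison without both libraries. For none of the 32 genes did the CPM ranges of 2 groups lie apart, where 1.2%, 0.33% and 0.632% of all genes had separate ranges in the same order of pairwise comparisons.

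The size of difference that each gene could hold was read from its own interval, which is not adjusted for the number of genes. All 32 confidence intervals (95%) lay within ±0.5 on the log2 scale, a 1.41-fold difference, in each of the 4 comparisons, whereas 77% of all genes did so in pair-fed risperidone against control and 75.4% in ad libitum risperidone against control. Within ±0.25, a 1.19-fold difference, lay the intervals of 31 of 32 genes in pair-fed risperidone against control, 28 of 32 in ad libitum risperidone against control and 27 of 32 in pair-fed against ad libitum risperidone. The corresponding shares of all genes were 49.3%, 47.4% and 43.9%. The 32 genes had 62 or more counts in every library, while the filter used a minimum count of 10. The part of count level in this contrast with all genes was not tested. The interval reaching farthest from 0 was that of *Tfeb* in pair-fed risperidone against control, with its bound at 0.42. The median log2 fold change of the 32 genes was 0.01 in pair-fed risperidone against control (all genes 0.00), with 18 genes higher and 14 lower. It was -0.01 in ad libitum risperidone against control (all genes 0.01), with 12 higher and 20 lower, and 0.02 in pair-fed against ad libitum risperidone (all genes -0.00), with 19 higher and 13 lower. Without ad libitum libraries 1 and 3 the medians were -0.00 in ad libitum risperidone against control and 0.00 in pair-fed against ad libitum risperidone, each with 16 higher and 16 lower.

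**Figure D1:**
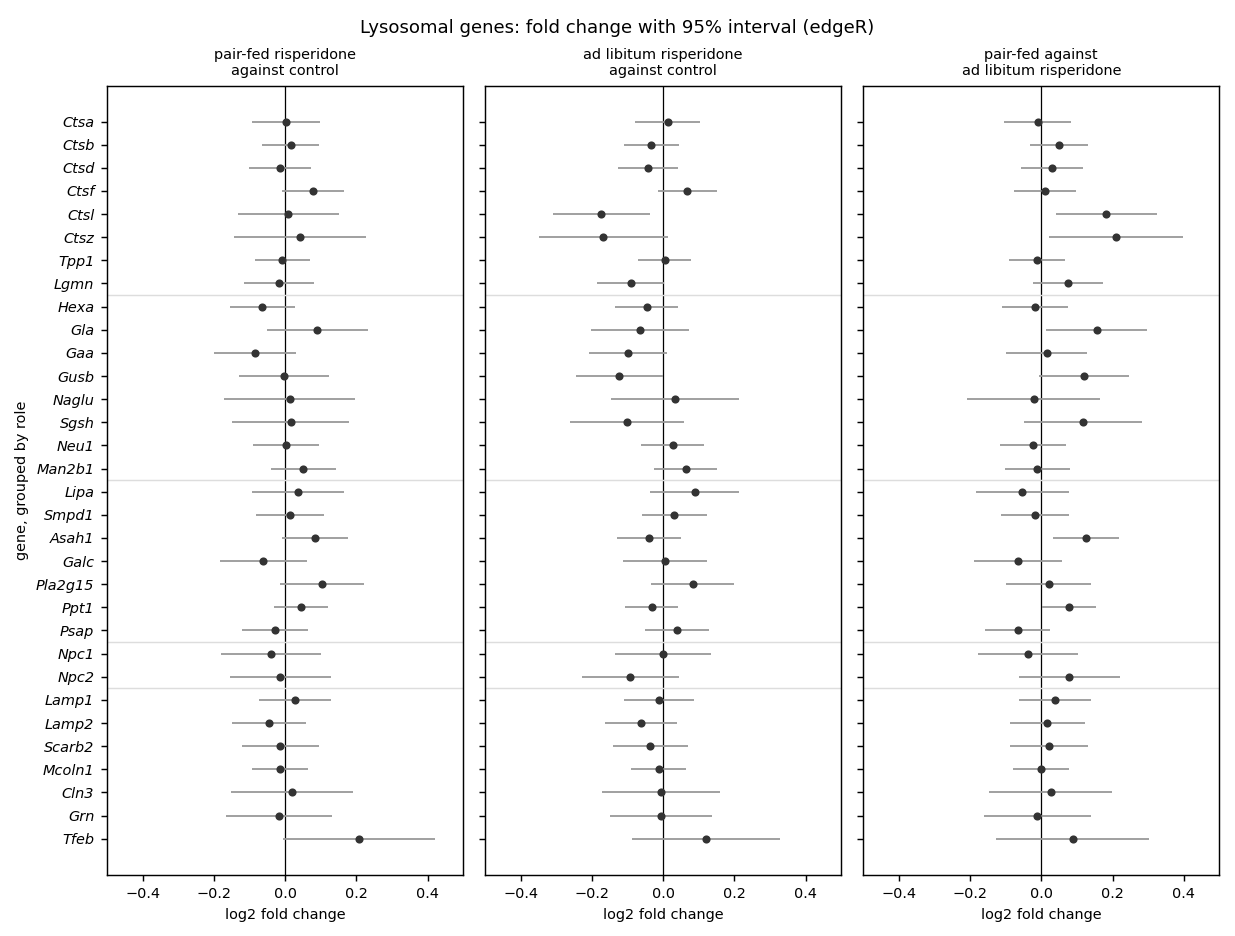
Log2 fold change (x axis) of each of the 32 genes (y axis, grouped by role) in the 3 pairwise comparisons. Points are edgeR estimates and bars their 95% intervals, all of which lie within ±0.5; the bars of *Ctsl* and *Gusb* in the middle panel lie left of 0, those of 5 genes in the right panel lie right of it, and none passed the adjusted threshold.

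*Tfeb*, on chr17:47737030-47792419 (plus strand, GRCm38), encodes the transcription factor that switches on lysosomal and autophagy genes, and its protein is controlled mainly by its place in the cell. Its level was 9.06, 10.3 and 12.7 CPM (lowest, median, highest) in pair-fed risperidone libraries, 6.35, 10.3 and 10.8 CPM in ad libitum risperidone libraries and 8.005, 8.87 and 10.2 CPM in control libraries. The groups overlapped, and all 6 pair-fed libraries and 6 of 7 ad libitum libraries lay above the control mean. Its log2 fold change was 0.21 (SE 0.103, interval -0.01 to 0.42, edgeR adjusted p = 0.767) in pair-fed risperidone against control. In ad libitum risperidone against control it was 0.12 (SE 0.101, edgeR adjusted p = 0.647). The lowest ad libitum value, 6.35 CPM, came from library 1, the library that stood apart in tissue markers. Without that library the ad libitum difference from control was 0.20 (edgeR adjusted p = 0.306), next to 0.21 (edgeR adjusted p = 0.311) for the pair-fed group in the same fit. Averaged over both risperidone groups, the difference from control in that fit was 0.21 (edgeR adjusted p = 0.226). Over all 30 other settings the sign against control was kept in both groups, and the adjusted p lay between 0.242 and 1 for the pair-fed group and between 0.302 and 0.801 for the ad libitum group. *Tfeb* was counted with 77 to 227 reads per library, and it had the largest standard error of the set in each of the 4 comparisons.

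The E-box TCACGTG is the core of the element through which TFEB acts, and is shown here because the promoters of many lysosomal genes carry it. RefSeq promoter windows on GRCm38.p6, from 250 bases before to 50 bases after a RefSeq start, were matched for 29 of the 32 genes. This start can lie inside the annotated gene, as it does for the stretches of *Cln3*, *Ctsa* and *Lgmn* below. *Asah1*, *Ctsb* and *Npc1* had no entry in the table. The letters TCACGTG were found on either strand in a window of 10 of 29 genes (34.5%), against 4.29% of the 27025 gene symbols with a window. The palindrome TCACGTGA, which contains TCACGTG, was found for 5 of 29 genes (17.2%), against 1.12% of gene symbols. The 10 genes were *Cln3*, *Ctsa*, *Ctsd*, *Gaa*, *Gla*, *Lamp1*, *Lgmn*, *Mcoln1*, *Naglu* and *Sgsh*. The stretches below show the promoter with the most copies (*Lamp1*), 4 of the 5 with the palindrome (all but *Ctsd*), and those of *Gaa* and *Lgmn*, whose values are given further on. They are written 5′ to 3′ on the strand of the gene, with TCACGTG or its reverse complement CACGTGA in capitals.
Lamp1 (chr8:13159084-13159166, plus strand): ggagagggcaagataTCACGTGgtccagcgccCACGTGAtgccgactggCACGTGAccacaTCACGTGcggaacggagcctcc
Mcoln1 (chr8:3500432-3500495, plus strand): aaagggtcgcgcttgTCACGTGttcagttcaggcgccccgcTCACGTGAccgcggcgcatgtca
Cln3 (chr7:126583336-126583400, minus strand): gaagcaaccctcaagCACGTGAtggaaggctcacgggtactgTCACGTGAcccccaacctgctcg
Ctsa (chr2:164833745-164833799, plus strand): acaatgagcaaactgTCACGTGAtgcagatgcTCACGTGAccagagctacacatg
Gla (chrX:134601178-134601248, minus strand): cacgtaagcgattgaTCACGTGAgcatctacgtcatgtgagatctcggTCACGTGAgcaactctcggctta
Gaa (chr11:119267807-119267843, plus strand): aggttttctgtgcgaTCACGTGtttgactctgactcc
Lgmn (chr12:102439121-102439157, minus strand): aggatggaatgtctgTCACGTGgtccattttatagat
*Lamp1* held 4 copies, between 62 and 16 bases before its start, the most of the 10 genes.

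The fold changes were also set side by side for genes with and without the motif, with no test of the difference. In pair-fed risperidone against control the median log2 fold change was 0.01 over the 10 genes with TCACGTG (6 higher, 4 lower) and 0.00 over the 19 genes without it (10 higher, 9 lower). In ad libitum risperidone against control it was -0.03 over the 10 genes with the motif (2 higher, 8 lower) and 0.00 over the 19 without (10 higher, 9 lower). In pair-fed against ad libitum risperidone it was 0.03 with the motif and 0.01 without. In pair-fed risperidone against control the fold changes lay between -0.08 and 0.09 with the motif and between -0.06 and 0.21 without it. Against control they lay, in the ad libitum group, between -0.10 and 0.03 with the motif and between -0.17 and 0.12 without it. With libraries 1 and 3 left out, 7 of 10 genes with the motif and 9 of 19 without it were lower in ad libitum risperidone than in control. These are descriptions of the 2 sets, and a match of letters is not a measured binding site.

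The genes of lysosomal membrane proteins showed small differences between the groups. *Lamp1* (chr8:13159161-13175338) encodes one of the most abundant glycoproteins of the lysosomal membrane. Its level was 328, 343 and 357 CPM (lowest, median, highest) on pair-fed risperidone, 286, 341 and 362 CPM on ad libitum risperidone and 327, 334 and 354 CPM in control libraries. The 3 ranges overlapped, and the low end of the ad libitum range was library 1. The log2 fold change of *Lamp1* was 0.03 (SE 0.049, edgeR adjusted p = 0.996) in pair-fed risperidone against control and -0.01 (SE 0.0471, edgeR adjusted p = 0.954) in ad libitum risperidone against control. *Lamp2*, a second membrane glycoprotein that also serves as receptor of chaperone-mediated autophagy, differed from control by -0.05 in pair-fed and -0.06 in ad libitum libraries. When libraries 1 and 3 were left out, the ad libitum difference was 0.05 for *Lamp1* and -0.01 for *Lamp2*. *Scarb2*, the sorting receptor of glucocerebrosidase, *Mcoln1*, a calcium channel of the lysosomal membrane, *Cln3*, a membrane protein lost in juvenile neuronal ceroid lipofuscinosis, and *Grn*, the precursor of granulins, differed from control by -0.04 to 0.02 in either risperidone group. Over the 7 genes of this role the median was -0.01 in each risperidone group against control. That of the ad libitum group turned to 0.03 without libraries 1 and 3. Part of the exonic length of *Lamp1* (9.308%) and *Cln3* (7.646%) overlaps a gene on the other strand. Larger overlaps of that kind were found for *Sgsh* (21.636%), *Ctsa* (17.37%), *Ctsb* (12.791%) and *Hexa* (12.776%), and *Ctsd* shares 34.368% of its exonic length with a gene model on its own strand. The counts of these genes are uncertain to that extent, since the strand setting of the counting was not given in the sources used here.

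Among the 8 proteases, *Ctsl* and *Ctsz* had the largest differences in the ad libitum group. *Ctsl* (chr13:64359337-64370890) encodes cathepsin L, a cysteine endopeptidase. Its level was 80.35, 91.8 and 97.6 CPM on pair-fed risperidone, 64.2, 81.6 and 94.7 CPM on ad libitum risperidone and 81.2, 91.7 and 94.4 CPM in control libraries. Only 1 of 7 ad libitum libraries lay above the control mean, and the ranges overlapped. For *Ctsl* the log2 fold change was -0.17 (SE 0.0658, interval -0.31 to -0.04, edgeR adjusted p = 0.283) in ad libitum risperidone against control, 0.18 (SE 0.0683, edgeR adjusted p = 0.265) in pair-fed against ad libitum risperidone and 0.01 in pair-fed risperidone against control. The lowest values, 64.2 and 70.9 CPM, were those of ad libitum libraries 3 and 1, and without both the difference from control was -0.09 (edgeR adjusted p = 0.488). An overlap of 26.845% of the exonic length with an unnamed gene model on the other strand makes the count of *Ctsl* uncertain.

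*Ctsz* (chr2:174427493-174439039) encodes cathepsin Z, a carboxypeptidase abundant in microglia and macrophages. It had 27.9, 36.1 and 38.9 CPM on pair-fed risperidone, 24.7, 28.3 and 34.7 CPM on ad libitum risperidone and 29.1, 33.4 and 37.5 CPM in control libraries. The groups overlapped, with 4 of 6 pair-fed and 2 of 7 ad libitum libraries above the control mean. The difference in log2 was 0.21 (SE 0.0907, interval 0.02 to 0.40, edgeR adjusted p = 0.326) in pair-fed against ad libitum risperidone and -0.17 (SE 0.0874, edgeR adjusted p = 0.413) in ad libitum risperidone against control. Without ad libitum libraries 1 and 3 these values were 0.13 and -0.10. *Lgmn* (chr12:102394084-102439813), the asparaginyl endopeptidase that matures cathepsins, had 135, 140.1 and 146 CPM on pair-fed risperidone, 114, 138 and 144 CPM on ad libitum risperidone and 135, 140.2 and 154 CPM in control libraries. Libraries 1 and 3 were again the lowest of the ad libitum group. Its log2 fold change in ad libitum risperidone against control was -0.09 (SE 0.0457, edgeR adjusted p = 0.394), and -0.03 without those libraries.

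*Ctsf* (chr19:4855130-4860918) encodes cathepsin F, a cysteine protease whose loss causes a neuronal ceroid lipofuscinosis. It had 54.4, 55.9 and 57.3 CPM on pair-fed risperidone, 50.6, 55.3 and 59.2 CPM on ad libitum risperidone and 50.3, 53.0 and 56.9 CPM in control libraries. All 6 pair-fed libraries and 5 of 7 ad libitum libraries lay above the control mean. For *Ctsf* the log2 fold change was 0.08 (SE 0.0416, edgeR adjusted p = 0.803) in pair-fed risperidone against control and 0.07 (SE 0.0402, edgeR adjusted p = 0.485) in ad libitum risperidone against control, where it was 0.11 (edgeR adjusted p = 0.196) without libraries 1 and 3. The other proteases were *Ctsa*, a carboxypeptidase that stabilises the sialidase *Neu1*, *Ctsb*, a cysteine protease, *Ctsd*, the main aspartic protease, and *Tpp1*, a tripeptidyl peptidase. Their log2 fold changes lay between -0.04 and 0.05 in the 3 pairwise comparisons. Over the 8 proteases the median was 0.01 in pair-fed and -0.04 in ad libitum risperidone against control, and 0.04 in pair-fed against ad libitum risperidone. The last 2 medians were, without ad libitum libraries 1 and 3, -0.01 and 0.01.

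The transcripts of glycan and sulfate hydrolases showed small differences of either sign. *Gaa* (chr11:119267887-119285454) encodes acid alpha-glucosidase, which degrades glycogen in lysosomes. It had 1185, 1224 and 1295 CPM on pair-fed risperidone, 1057, 1244 and 1364 CPM on ad libitum risperidone and 1272, 1297 and 1360 CPM in control libraries. All 6 pair-fed libraries lay below the control mean, while the 2 highest ad libitum libraries lay above it. Its log2 fold change was -0.08 (SE 0.0549, interval -0.20 to 0.03, edgeR adjusted p = 0.878) in pair-fed risperidone against control and -0.10 (SE 0.0527, edgeR adjusted p = 0.423) in ad libitum risperidone against control. *Gaa* kept a negative sign against control in all 30 other settings, in which its adjusted p was not below 0.302 for the pair-fed and 0.228 for the ad libitum group.

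*Gusb* (chr5:129989011-130003049), beta-glucuronidase, cleaves glucuronic acid from glycosaminoglycans. It had 24.2, 25.6 and 26.9 CPM on pair-fed risperidone, 18.75, 24.2 and 25.1 CPM on ad libitum risperidone and 23.7, 25.1 and 28.7 CPM in control libraries. The value of 18.75 CPM belonged to ad libitum library 1. For *Gusb* the difference in log2 in ad libitum risperidone against control was -0.12 (SE 0.059, edgeR adjusted p = 0.375), and it was -0.07 (edgeR adjusted p = 0.591) without that library. *Hexa* (chr9:59539540-59565109), the alpha subunit of the enzyme that removes a sugar from GM2 ganglioside, had 52.5, 58.2 and 61.4 CPM on pair-fed risperidone, 56.0, 57.1 and 62.3 CPM on ad libitum risperidone and 53.9, 60.2 and 64.5 CPM in control libraries. These ranges lay over each other, and the log2 fold change was -0.06 (SE 0.044, edgeR adjusted p = 0.889) in pair-fed risperidone against control.

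*Man2b1* (chr8:85083270-85098282), lysosomal alpha-mannosidase, had 42.3, 43.9 and 45.9 CPM on pair-fed risperidone, 39.8, 44.6 and 47.5 CPM on ad libitum risperidone and 40.0, 42.7 and 45.1 CPM in control libraries. It lay above the control mean in 5 of 6 pair-fed and 6 of 7 ad libitum libraries. Its log2 fold change in ad libitum risperidone against control was 0.06 (SE 0.0421, edgeR adjusted p = 0.545), and 0.02 without libraries 1 and 3. *Gla*, alpha-galactosidase A, had a log2 fold change of 0.16 (SE 0.0687, edgeR adjusted p = 0.333) in pair-fed against ad libitum risperidone, 0.09 in pair-fed and -0.06 in ad libitum risperidone against control. *Naglu* and *Sgsh*, which degrade heparan sulfate, and *Neu1*, a sialidase, differed from control by -0.10 to 0.03 in either risperidone group. Over the 8 genes of this role the median was 0.01 in pair-fed and -0.06 in ad libitum risperidone against control.

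Among the 7 genes of lysosomal lipid breakdown, acid ceramidase gave the smallest p of the 32 genes. *Asah1* (chr8:41340197-41374773) encodes this enzyme, which splits ceramide into sphingosine and a fatty acid. It had 76.0, 77.4 and 84.0 CPM on pair-fed risperidone, 64.8, 73.0 and 76.9 CPM on ad libitum risperidone and 66.45, 74.7 and 77.1 CPM in control libraries. All 6 pair-fed libraries lay above the mean of either ad libitum group, and the ranges overlapped. Between pair-fed and ad libitum risperidone the log2 fold change was 0.12 (SE 0.0448, interval 0.03 to 0.22, edgeR adjusted p = 0.243). In pair-fed risperidone against control it was 0.08 (SE 0.0446, edgeR adjusted p = 0.803), and in ad libitum risperidone against control -0.04 (SE 0.0431, edgeR adjusted p = 0.732). With libraries 1 and 3 of the ad libitum group left out, the difference between the risperidone groups was 0.08 (edgeR adjusted p = 0.501).

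*Pla2g15* (chr8:106150399-106164715) encodes the lysosomal phospholipase A2, an enzyme that several cationic amphiphilic drugs inhibit and whose loss in mice leads to stored phospholipids. It had 19.2, 21.2 and 21.9 CPM on pair-fed risperidone, 19.6, 21.1 and 22.01 CPM on ad libitum risperidone and 16.2, 19.6 and 22.1 CPM in control libraries. It was above the control mean in 5 of 6 pair-fed and 7 of 7 ad libitum libraries, and within the control range in both groups. The log2 fold change was 0.10 (SE 0.0574, edgeR adjusted p = 0.823) in pair-fed and 0.08 (SE 0.0557, edgeR adjusted p = 0.548) in ad libitum risperidone against control. *Lipa* (chr19:34492318-34527474), the acid lipase that frees cholesterol from its esters, had 26.7, 28.9 and 31.6 CPM on pair-fed risperidone, 25.9, 30.4 and 34.3 CPM on ad libitum risperidone and 26.7, 28.5 and 30.5 CPM in control libraries. Its ad libitum values ran to either side of the control range. For *Lipa* the log2 fold change was 0.09 (SE 0.0602, edgeR adjusted p = 0.553) in ad libitum risperidone against control, and 0.16 (edgeR adjusted p = 0.186) without libraries 1 and 3.

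*Psap* (chr10:60277627-60302597) encodes prosaposin, the precursor of the saposins that present sphingolipids to their hydrolases. It had 1417, 1444 and 1508 CPM on pair-fed risperidone, 1386, 1499.7 and 1676 CPM on ad libitum risperidone and 1452, 1472 and 1539.6 CPM in control libraries. The 6 pair-fed libraries all lay below the ad libitum risperidone mean, and the ad libitum range enclosed both other ranges. Its log2 fold change was -0.07 (SE 0.0446, edgeR adjusted p = 0.516) in pair-fed against ad libitum risperidone and -0.03 in pair-fed risperidone against control. *Galc* (chr12:98202294-98259459), the galactosylceramidase that degrades a lipid of myelin, had 20.7, 22.9 and 25.5 CPM on pair-fed risperidone, 21.96, 23.0 and 28.6 CPM on ad libitum risperidone and 23.3, 23.55 and 25.3 CPM in control libraries. The highest *Galc* value was that of ad libitum library 1, the library with the lowest oligodendrocyte markers. Its log2 fold change was -0.06 (SE 0.0586, edgeR adjusted p = 0.958) in pair-fed risperidone against control and -0.07 (SE 0.0591, edgeR adjusted p = 0.642) in pair-fed against ad libitum risperidone. Leaving out library 1 gave -0.02 between the risperidone groups. *Smpd1*, acid sphingomyelinase, and *Ppt1*, which removes palmitate from proteins, differed from control by -0.03 to 0.05 in either risperidone group. The median of the 7 genes was 0.04 in pair-fed and 0.03 in ad libitum risperidone against control.

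Cholesterol leaves the lysosome through a pair of proteins: the soluble *Npc2* binds it in the lumen and hands it to the membrane protein *Npc1*. *Npc1* had 73.0, 75.3 and 85.6 CPM on pair-fed risperidone, 62.5, 80.4 and 88.5 CPM on ad libitum risperidone and 71.6, 79.9 and 84.8 CPM in control libraries. *Npc2* (chr12:84754562-84773152) had 60.02, 64.4 and 73.0 CPM on pair-fed risperidone, 46.8, 62.9 and 70.15 CPM on ad libitum risperidone and 60.9, 66.0 and 71.5 CPM in control libraries. In both genes the groups overlapped and ad libitum library 1 held the lowest value of all 20. The log2 fold changes of *Npc1* were -0.04 (SE 0.0674, edgeR adjusted p = 0.996) in pair-fed and -0.00 (SE 0.0649, edgeR adjusted p = 0.998) in ad libitum risperidone against control. Those of *Npc2* were -0.01 (SE 0.0682, edgeR adjusted p = 1) in pair-fed and -0.09 (SE 0.0659, edgeR adjusted p = 0.575) in ad libitum risperidone against control, the second being -0.03 without library 1.

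**Figure D2:**
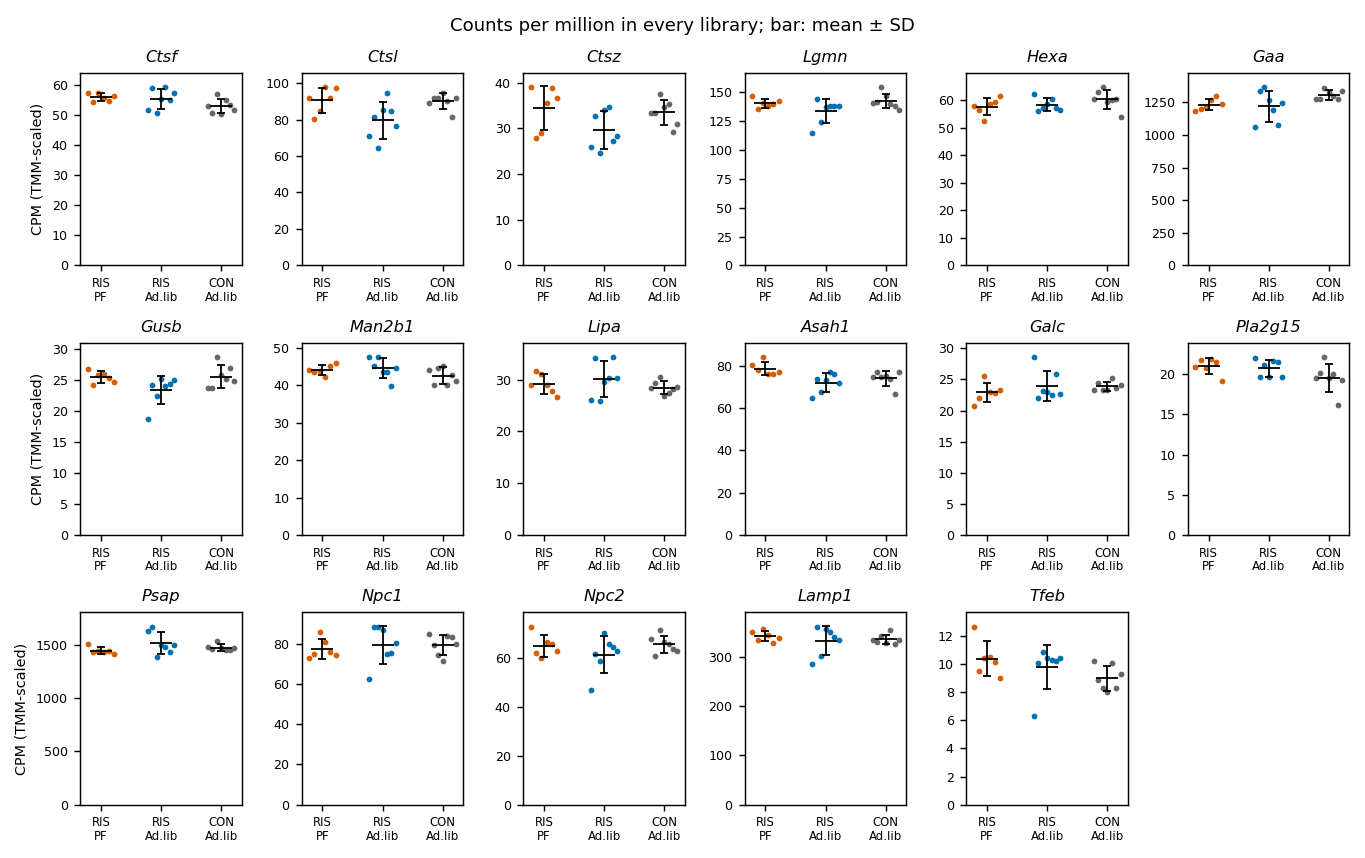
Level of the 17 genes described by value (y axis, CPM scaled by library, each from 0) in each library, with pair-fed risperidone left, ad libitum risperidone in the middle and control right. Points are libraries and bars mean ± SD; the ranges of the groups overlap in all 17 genes, and the lowest point of *Tfeb*, 6.35 CPM, is an ad libitum library.

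The summed level of the 32 genes was nearly the same in the groups. It was 5512 ± 74.5 CPM in pair-fed risperidone libraries (SD, n = 6), 5494 ± 237 CPM in ad libitum risperidone libraries (SD, n = 7) and 5597 ± 110 CPM in control libraries (SD, n = 7). The median coefficient of variation of the 32 genes was also largest in the ad libitum group, though not every gene followed. This median was 4.86% in the pair-fed, 8.8% in the ad libitum and 4.61% in the control group. Over all genes tested the corresponding medians were 8.72%, 13.7% and 8.03%. Without libraries 1 and 3 the ad libitum median was 5.08% for the 32 genes and 8.5% for all genes. Library 1 was the lowest of its group in 11 of 32 genes and library 3 in 12 of 32, where equal shares would give 4.57. Library 1 was also the highest of its group in 8 of 32 genes, and library 3 in 3 of 32. The low values of library 1 included *Npc2*, *Gusb*, *Lgmn*, *Npc1* and *Tfeb*, and those of library 3 *Ctsl*, *Ctsz* and *Gla*.

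**Figure D3:**
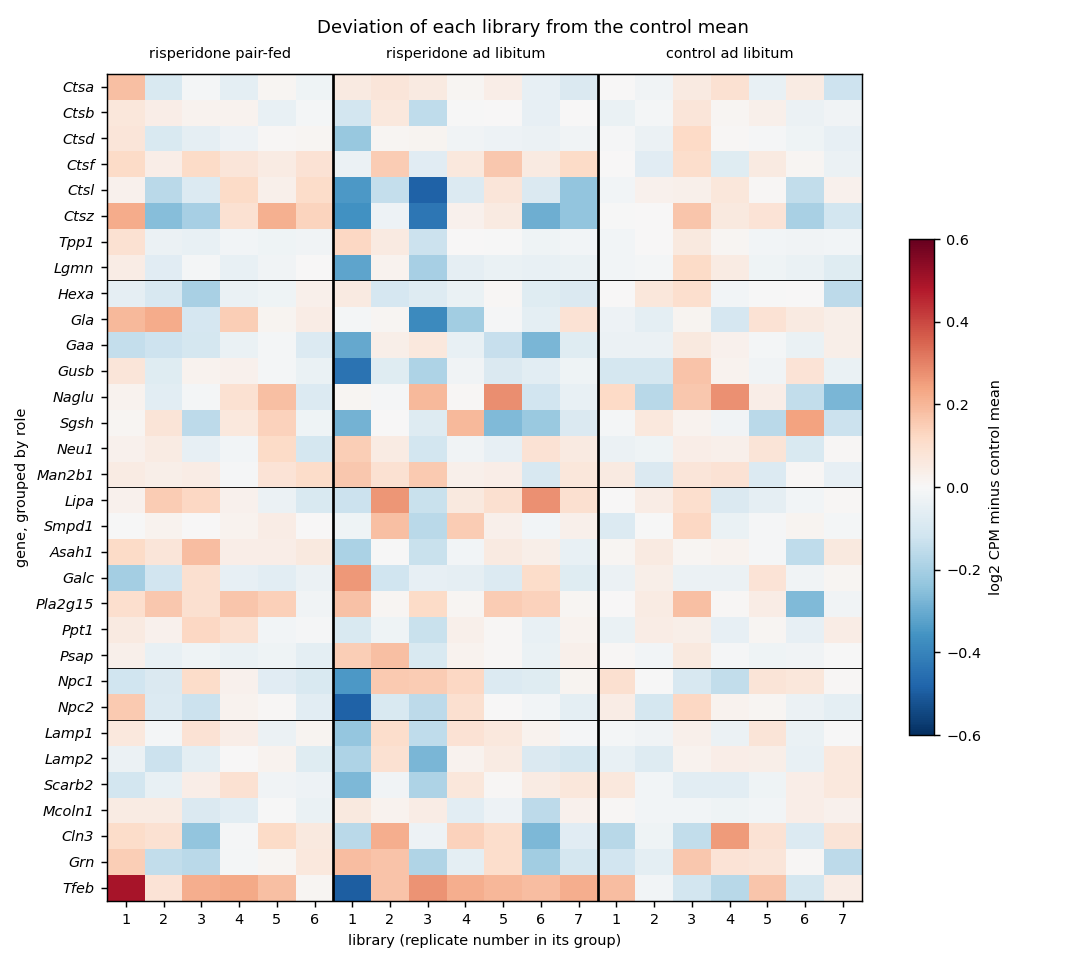
Difference of each library's log2 CPM from the control mean (colour, blue lower and red higher) for the 32 genes (rows, grouped by role) in the 20 libraries (columns; pair-fed risperidone, ad libitum risperidone, control). The deepest blue cells stand in ad libitum libraries 1 and 3, and the *Tfeb* row is red in all 6 pair-fed libraries and 6 of 7 ad libitum libraries.

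Microglia are rich in cathepsins and other lysosomal proteins, and markers of these and other cell types were followed beside the 32 genes. None of 15 microglial markers was called in the 3 pairwise comparisons, and 12 of 15 were higher in pair-fed risperidone than in control (median log2 fold change 0.07). The summed level of the 15 markers was 299 to 359 CPM in pair-fed risperidone libraries, 299 to 352 CPM in ad libitum risperidone libraries and 276 to 377 CPM in control libraries. Of the markers of border macrophages, 6 of 8 were tested (*Pf4* and *Ms4a7* were too low), and their sum was 17.2 to 26.4 CPM in pair-fed, 17.9 to 28.9 CPM in ad libitum and 17.1 to 36.4 CPM in control libraries. All 6 were lower than in control in each risperidone group, with medians of -0.38 in the pair-fed and -0.55 in the ad libitum group, and 0 of 6 were called. Leaving out ad libitum libraries 1 and 3 gave 6 of 7 lower in each group, with medians of -0.29 and -0.38. Markers of oligodendrocytes, a cell type that expresses *Galc* and many other of these genes, summed to 7160 to 9522 CPM in pair-fed, 3348 to 10057 CPM in ad libitum and 6196 to 8668 CPM in control libraries, with 0 of 10 called and 10 of 10 higher in each risperidone group than in control. Their median was 0.16 in the pair-fed and 0.11 in the ad libitum group. Without ad libitum libraries 1 and 3 it was 0.16 and 0.31, and 1 of 10 was called higher in each group, *Opalin* in pair-fed (edgeR adjusted p = 0.000107) and *Mobp* in ad libitum risperidone (edgeR adjusted p = 0.0333). Of 10 astrocyte markers 9 were lower in pair-fed risperidone than in control (median -0.09), and 1 was called, *Gjb6*, a gap junction protein, which fell by 0.36 (SE 0.064, edgeR adjusted p = 0.00452) and was called in all 31 settings. In bulk tissue, fewer cells of a type and less RNA per cell cannot be told apart. The part of these cell types in the values above was not tested.

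Per length, the 32 genes spanned a 338-fold range of levels. In control libraries *Psap* stood highest with 538.3 CPM per kb of annotated exons, followed by *Gaa* with 273.3, *Lamp1* with 125.7, *Ctsb* with 97.2 and *Ctsd* with 83.5 CPM per kb. At the low end were *Sgsh* with 2.84, *Galc* with 1.61 and *Tfeb* with 1.59 CPM per kb. *Psap* and *Gaa* together held 49.7% of the summed CPM of the 32 genes. In pair-fed risperidone libraries the same genes stood at 528.1 CPM per kb (*Psap*), 257.8 (*Gaa*) and 1.84 (*Tfeb*), and in ad libitum risperidone libraries at 553, 255.1 and 1.73 CPM per kb. The total exon length of a gene counts every annotated isoform, so a level per kb is too low where long isoforms are rare.

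**Figure D4:**
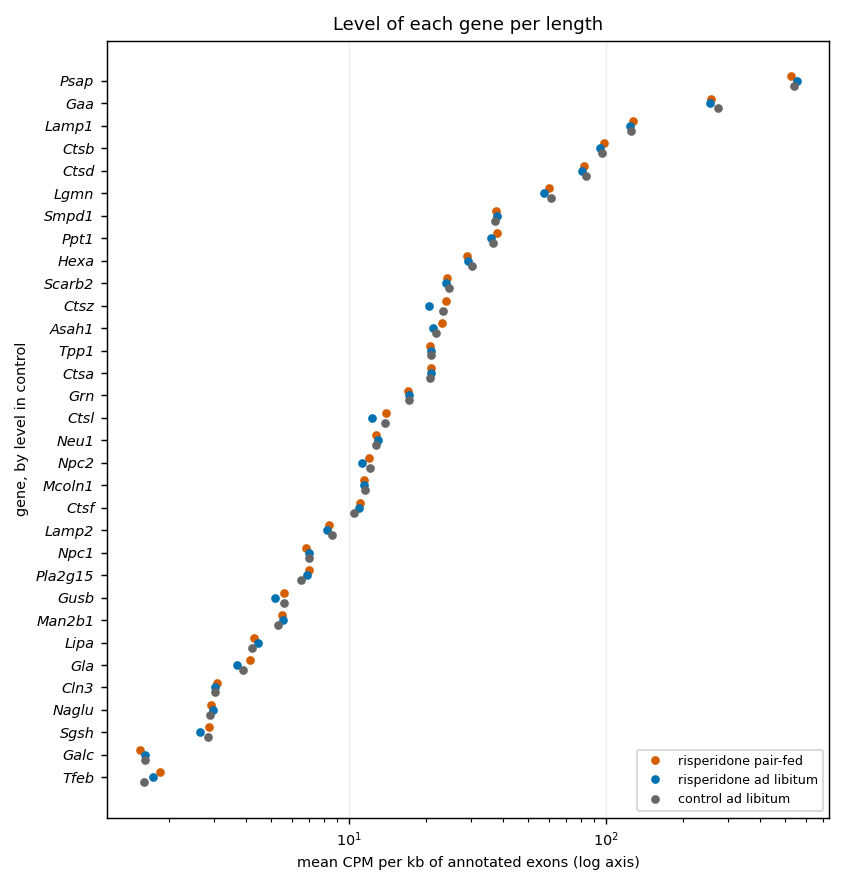
Mean level of each of the 32 genes per kb of annotated exons (x axis, CPM per kb, log axis), ordered by the control level (y axis), for pair-fed risperidone, ad libitum risperidone and control libraries. The points of the 3 groups lie close together for each gene, from *Psap* at 538.3 CPM per kb in control down to *Tfeb* at 1.59.

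Genes outside the 32 that act in the same organelle were uncalled as well. None of 30 other lysosomal hydrolases and activators, 28 other membrane and sorting proteins, 18 subunits of the vacuolar ATPase that acidifies the lysosome, 19 tested transcription factors and regulators of the TFEB and mTORC1 pathway, or 25 autophagy genes was called in the 3 pairwise comparisons. The other hydrolases had medians of -0.01 in pair-fed and -0.04 in ad libitum risperidone against control, with 25 of 30 lower in the ad libitum group, and 0.06 in pair-fed against ad libitum risperidone. In that list *Manba*, beta-mannosidase, had -0.26 (SE 0.0824, edgeR adjusted p = 0.205) in ad libitum risperidone against control and *Aga*, an amidase of glycoproteins, -0.25. Without ad libitum libraries 1 and 3 these values were -0.17 and -0.18, and the median of the list was -0.02, with 21 of 30 lower. Between pair-fed and ad libitum risperidone the median of the list was then 0.03. *Mitf*, a relative of *Tfeb*, had a log2 fold change of 0.25 in ad libitum risperidone against control (edgeR adjusted p = 0.298). *Lamtor5*, a subunit of the lysosomal scaffold for mTORC1, had 0.19 in pair-fed risperidone against control (edgeR adjusted p = 0.387).

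The genes nearest to phospholipid storage were also uncalled. Over 11 genes of bis(monoacylglycero)phosphate and phospholipid turnover, a list that includes *Pla2g15*, the median log2 fold change was 0.06 in pair-fed and 0.00 in ad libitum risperidone against control. Over 8 tested markers of lysosomal storage and damage it was -0.05 in pair-fed and -0.12 in ad libitum risperidone against control, the second being -0.07 without ad libitum libraries 1 and 3. Of these markers *Spp1*, osteopontin, had -0.86 (SE 0.306, edgeR adjusted p = 0.261) and *Lgals3*, a galectin that binds damaged lysosomes, -0.47 (SE 0.22, edgeR adjusted p = 0.361) in ad libitum risperidone against control. *Cst7* and *Atp6v0d2* were too low to test.

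Among the lysosomal and lipid lists, calls were found in 1 list of lipid genes outside the lysosome. In the list of cholesterol efflux, lipoprotein and lipid droplet genes, 2 of 19 fell in pair-fed risperidone against control, where 0.436% of all genes fell. The list was chosen with earlier results of these data known, so its share beside that of all genes is no test of the list. *Plin4*, a coat protein of lipid droplets, averaged 14.9 ± 3.71 CPM in pair-fed risperidone libraries (SD, n = 6), 48.0 ± 20.1 CPM in ad libitum risperidone libraries (SD, n = 7) and 47.7 ± 7.38 CPM in control libraries (SD, n = 7). It fell by 1.68 on the log2 scale against control (SE 0.213, edgeR adjusted p = 9.92e-05) and by 1.67 against ad libitum risperidone (SE 0.214, edgeR adjusted p = 0.000279), and both calls held in all 31 settings. Over both risperidone groups averaged against control it fell by 0.85 (edgeR adjusted p = 0.021). *Pnpla2*, adipose triglyceride lipase, averaged 38.5 ± 1.76 CPM in pair-fed, 46.7 ± 6.28 CPM in ad libitum and 47.8 ± 1.92 CPM in control libraries, and fell by 0.31 in pair-fed risperidone against control (SE 0.0674, edgeR adjusted p = 0.0311), a call made in 18 of 31 settings. Without ad libitum libraries 1 and 3 it was also called against ad libitum risperidone, where it fell by 0.32 (edgeR adjusted p = 0.00285). *Pnpla2* was called in that comparison in 4 of 31 settings. In the same comparison with control, 9 of 10 astrocyte markers were lower, as given above, and the part of these cells in the fall of *Plin4* and *Pnpla2* was not tested. Among 21 genes of sterol synthesis and uptake none was called, and all 21 had a positive log2 fold change in pair-fed risperidone against control, with a median of 0.08, against 11 of 21 and a median of 0.00 in ad libitum risperidone against control. The leading gene of that list, *Mvd*, an enzyme of the mevalonate pathway, had 0.23 in the pair-fed group (SE 0.078, edgeR adjusted p = 0.413).

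**Figure D5:**
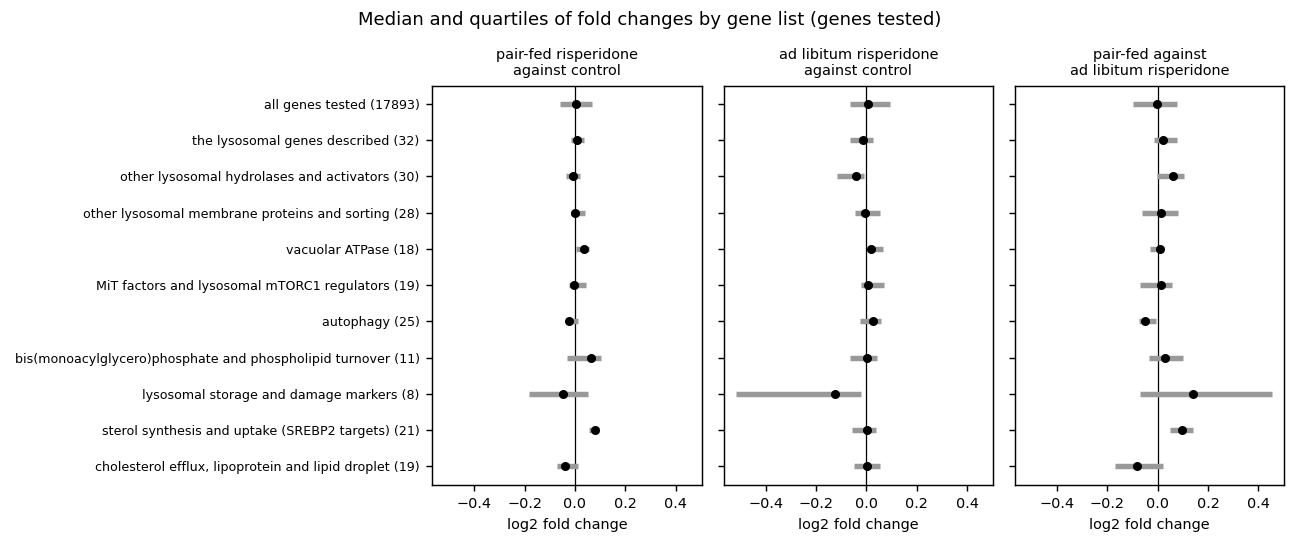
Median (points) and quartiles (bars) of the log2 fold changes (x axis) in each gene list (y axis, number of genes tested in brackets) for the 3 pairwise comparisons. The median of the 32 lysosomal genes lies at 0.01, -0.01 and 0.02, and that of the sterol list at 0.08, 0.00 and 0.10.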

How the data were processed

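Total RNA of hypothalamus slices was sequenced as paired-end reads on a DNBseq instrument, per the labels' protocols. The authors deposited 1 table of raw read counts per gene for 20 libraries. Per the submitters' processing notes STAR, featureCounts and DESeq2 were used with builds GRCm38 and mm10; their settings, the strand setting included, were not given in the sources used here. Ensembl IDs were matched to GENCODE M21 (55230 of 55471).

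Counts were tested with edgeR 4.0.16 (R 4.3.3): TMM scaling, filterByExpr with a minimum count of 10, 1 coefficient per group over all 20 libraries (17 residual degrees of freedom), quasi-likelihood F test, Benjamini-Hochberg adjustment over 17893 genes, threshold 0.05. Fold changes are log2; CPM are TMM-scaled; intervals are 95%. Alternatives used other scalings, filters and dispersions, DESeq2 1.42.0, limma 3.58.1 (voom), groups fitted alone, a replicate block and left-out libraries.

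The 32 genes and all other lists were chosen with earlier results of these data known. Values are given for *Tfeb*, *Lamp1*, *Npc1*, *Npc2* and, per pairwise comparison, the 3 genes with the smallest p in each direction. Total counts were 9748005 to 18606543 per library, and the 32 genes had 62 to 32126 counts in a library. No replicate pair agreed within sampling noise (lowest chi-square per degree of freedom 2.641 over 57 pairs). RefSeq promoter windows were searched for exact letters on both strands.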

Additional observations from a re-analysis of the deposited data

Results flagged for a closer look

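Of 96 sets of values (32 genes in 3 groups), 12 held a library whose gap to the nearest other value was large for the range of its group; chance gives about 1 in 20. The flags fell on 5 of the 20 libraries.

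Pair-fed risperidone library 1 was highest for *Ctsa* with 111.1 CPM (next 98.8), for *Tpp1* with 114.4 CPM (next 106) and for *Psap* with 1508 CPM (next 1449.7). Pair-fed risperidone library 3 was lowest for *Cln3* with 14.79 CPM (next 17.35). Ad libitum risperidone library 1 was lowest for *Ctsd* with 167.3 CPM (next 192), for *Gusb* with 18.75 CPM (next 22.4) and for *Tfeb* with 6.349 CPM (next 10.1). Control library 3 was highest for *Ctsd* with 213 CPM (next 197), for *Tpp1* with 111.9 CPM (next 108) and for *Psap* with 1540 CPM (next 1484). Control library 6 was lowest for *Ctsl* with 81.21 CPM (next 89.05) and for *Asah1* with 66.45 CPM (next 73.7). Control library 3 was also the highest of its group in 15 of 32 genes and pair-fed library 1 in 13 of 32.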

How the results depend on the processing

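The count of called genes among the 32 was 0 in each of the 4 comparisons under all 30 other settings, and the smallest adjusted p of any of them was 0.115. Of 3840 recomputed fold changes 3814 stayed within 1 standard error. The settings reuse the same counts, and 20 of the 30 leave out only 1 library, so much of this closeness was fixed in advance. A change of sign occurred in 209 of the 3840, all of them uncalled, none larger than 0.09 in size at first. The median over the 32 genes ranged from -0.00 to 0.01 in pair-fed risperidone against control, from -0.03 to -0.00 in ad libitum risperidone against control and from 0.00 to 0.03 in pair-fed against ad libitum risperidone.

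The number of called genes among all tested moved more. In pair-fed risperidone against control it was 87, and 134 with DESeq2, 223 with limma-voom, 245 with the groups compared alone, 250 without ad libitum libraries 1 and 3, and 66 to 166 leaving out 1 library. In ad libitum risperidone against control it was 11, and 110 with DESeq2, 51 with limma-voom, 3 with the groups compared alone, 48 without both libraries, and 0 to 35 leaving out 1 library. In pair-fed against ad libitum risperidone it was 71, and 170 with DESeq2, 139 with limma-voom, 31 with the groups compared alone, 142 without both libraries, and 39 to 130 leaving out 1 library. With both risperidone groups averaged against control it was 59, and 99 with DESeq2, 151 with limma-voom, 18 with the groups compared alone, 193 without both libraries, and 36 to 99 leaving out 1 library. The highest of these leave-one-out counts came in each comparison without ad libitum risperidone library 1. The lowest came without pair-fed library 1, ad libitum library 2 or 7, pair-fed library 6 and control library 4, in the same order. The cause was not tested.

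Libraries of the same replicate number did not deviate together (median r -0.0255 over 19 pairs, 2 above 0.1), so the number was not taken as a pairing. With a replicate block the 32 genes had 0 calls in each comparison, and all genes had 65, 1, 48 and 45 calls in the order above. The lowest counts per library were those of *Naglu* (62 to 176) and *Tfeb* (77 to 227), and *Tfeb* had the largest standard error in each comparison.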
